A study of Mus musculus with 24 samples.

Results

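The mouse mitochondrial genome is represented in these liver RNA-seq libraries by 37 gene rows. They are the 13 protein-coding genes, the 2 rRNA genes mt-Rnr1 and mt-Rnr2, and the 22 tRNA genes, and the rule that picks the rows uses gene symbols and no measured value. They make up 37 of the 50657 gene rows of each count table. After a filter on low counts 27 of them, all 13 coding genes, both rRNAs and 12 tRNAs, were among the 13204 genes tested. The other 10 tRNA rows had too few counts.

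The mitochondrial genome encodes only core membrane subunits of the respiratory chain and of ATP synthase, together with the rRNAs and tRNAs with which mitochondria translate them. Each strand is transcribed as a long polycistronic RNA, which is cut mostly at the tRNAs that lie between the coding genes, and most mitochondrial mRNAs then receive a short poly(A) tail. Acetaminophen overdose injures hepatocytes through a reactive metabolite that binds mitochondrial proteins, and hepatocytes are rich in mitochondria. EGFR is a receptor tyrosine kinase of hepatocytes that takes part in liver injury and regeneration.

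The study gave wild-type (WT) mice and mice with a hepatocyte-specific EGFR knockout (KO) 500 mg/kg acetaminophen and took the livers afterwards. The labels of the 24 libraries name 0, 1, 3 and 12 h, which gives 8 groups of 3 libraries. Each library is from the liver of a single mouse. The groups are WT at 0, 1, 3 and 12 h and KO at 0, 1, 3 and 12 h. The sources used here do not give the strain, age or sex of the mice, the Cre driver of the knockout, or whether the 0 h mice received acetaminophen or vehicle.

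Libraries held 20002751 to 36190018 reads, of which 3537237 to 7580645 were counted on genes without regard to strand. The 12 h libraries had 3537237 to 4737221 gene counts, at the low end of that range, and the smallest scaling factors by the trimmed mean of M-values (TMM), 0.814 to 0.971 against 1.00 to 1.14 at the other times. Between 26.3% and 30.8% of reads fell where more than 1 gene lies and were counted for none. Egfr ran from 203 to 633 CPM, the counts of a row scaled to a common library total, in the WT libraries and from 43.0 to 271 CPM in 11 of the 12 KO libraries. These ranges overlap, but each of the 11 lay below the WT libraries of its own time. The library labelled KO 1 h replicate 1 stood at 335 CPM, within the WT libraries of 1 h (332 to 407 CPM), so its label is in doubt. Leaving it out changed no call of a coding gene or rRNA at 1 h and ended 1 call of a tRNA row, given below. WT 0 h replicate 2 stood apart from its group on several mitochondrial rows, and results that rest on it are given with and without it. Hepatocyte markers summed to 29476 to 36187 CPM at 0 h and to 36812 to 43897 CPM at 12 h, and none of the 6 was at 0. The 6 did not move alike. At 12 h against 0 h, 4 were called higher and 1 lower in WT, beside 25.6% of all tested genes called. In KO 1 was called higher and 1 lower, beside 28.8%. Bile duct markers summed to 18.8 to 24.6 CPM at 0 h and to 109 to 221 CPM in WT and 33.9 to 126 CPM in KO at 12 h, with Krt7 at 0 in WT at 12 h. Only 2 of these 5 markers passed the filter, and Sox9 made up most of the sum, its mean going from 10.6 to 145 CPM between these times in WT and from 11.9 to 70.5 CPM in KO. Neutrophil and monocyte markers stayed at or below 5.56 CPM and lymphocyte markers at or below 2.10 CPM. At 3 h the red blood cell markers summed to 80.1 to 331 CPM in WT and 42.2 to 59.3 CPM in KO. Of these 5 markers 3 were called lower in KO, beside 0.977% of all genes. Of 6 Kupffer cell markers 4 were called lower in WT at 1 h than at 0 h, beside 8.09% of all genes, and 0 in KO, beside 7.58%. These are bulk samples, in which fewer cells of a type and less RNA per cell cannot be told apart.

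Several mitochondrial genes share bases with a neighbour, and the pieces that bear on the counts are shown first. They were read from the GENCODE M21 transcripts on GRCm38, with gene names joined to RefSeq, and each is written 5′ to 3′ on its own strand. ATP8 and ATP6, subunits of ATP synthase, share 43 bases on the same strand, which the capitals mark.
ATP8 end: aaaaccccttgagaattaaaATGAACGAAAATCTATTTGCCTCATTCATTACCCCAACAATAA
ATP6 start: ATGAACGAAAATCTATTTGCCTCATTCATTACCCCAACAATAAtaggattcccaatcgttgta
ND4L and ND4, subunits of complex I, share 7 bases on the same strand, again in capitals.
ND4L end: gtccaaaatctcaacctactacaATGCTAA
ND4 start: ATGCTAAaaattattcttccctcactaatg
ND5 and ND6, also complex I subunits, lie on opposite strands and meet at their 3′ ends, where the 14 capital bases of one are the reverse complement of those of the other.
ND5 end: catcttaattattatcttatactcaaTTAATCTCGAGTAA
ND6 end: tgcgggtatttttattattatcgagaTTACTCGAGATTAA
TrnY, the tyrosine tRNA gene, lies on the strand opposite to COX1 and just upstream of it, and its whole sequence of 67 bases is shown because the number of reads opposite to it is close to the number that COX1 lacks in the unstranded column.
TrnY: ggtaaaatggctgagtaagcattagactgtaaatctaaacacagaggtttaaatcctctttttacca
ND3, another complex I subunit, stands for the genes with a near-complete nuclear copy, and the single capital marks the 1 base at which the stretch shown differs between ND3 and its copy Gm28438.
ND3 stretch: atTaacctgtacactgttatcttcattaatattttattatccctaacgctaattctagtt
copy of ND3 stretch: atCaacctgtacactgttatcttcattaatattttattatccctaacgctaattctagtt

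Mitochondrial rows took 46.5% to 58.1% of all gene counts of a library, and most of that was rRNA. Libraries were labelled as polyA RNA, and the rRNA share was taken as a technical measure of each library. The rRNA share was 42.3% ± 1.00 (SD, n = 3) in WT and 42.4% ± 0.717 in KO at 0 h. At 12 h it was 48.9% ± 0.405 in WT, with libraries between 48.4% and 49.2%, and 47.5% ± 2.80 in KO, with libraries between 44.8% and 50.4%. The 12 h libraries of both genotypes lay above those of 0 h. The 13 coding genes together held 5.92% to 8.23% of gene counts, from 6.92% ± 1.18 in WT at 0 h to 6.50% ± 0.338 in WT and 7.67% ± 0.103 in KO at 12 h, and the 22 tRNA rows held 0.0217% to 0.0407%. Because the rRNA takes up so much of each library, the coding share was also computed without it. On that footing the coding genes held 12.0% ± 2.17 in WT and 11.6% ± 0.389 in KO at 0 h, and 12.7% ± 0.704 in WT and 14.6% ± 0.627 in KO at 12 h. The WT libraries stood at 10.1%, 11.6% and 14.4% at 0 h, the last being replicate 2, and ran from 12.3% to 13.5% at 12 h. Without replicate 2 the WT libraries of 0 h lay below those of 12 h. The KO libraries ran from 11.2% to 12.0% at 0 h and from 14.1% to 15.3% at 12 h. A single nuclear row, AY036118, held 82.5% to 90.0% of the gene counts on the strand opposite to the annotated one and at most 1 count in the unstranded column. It therefore took no part in these shares.

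**Figure D1:**
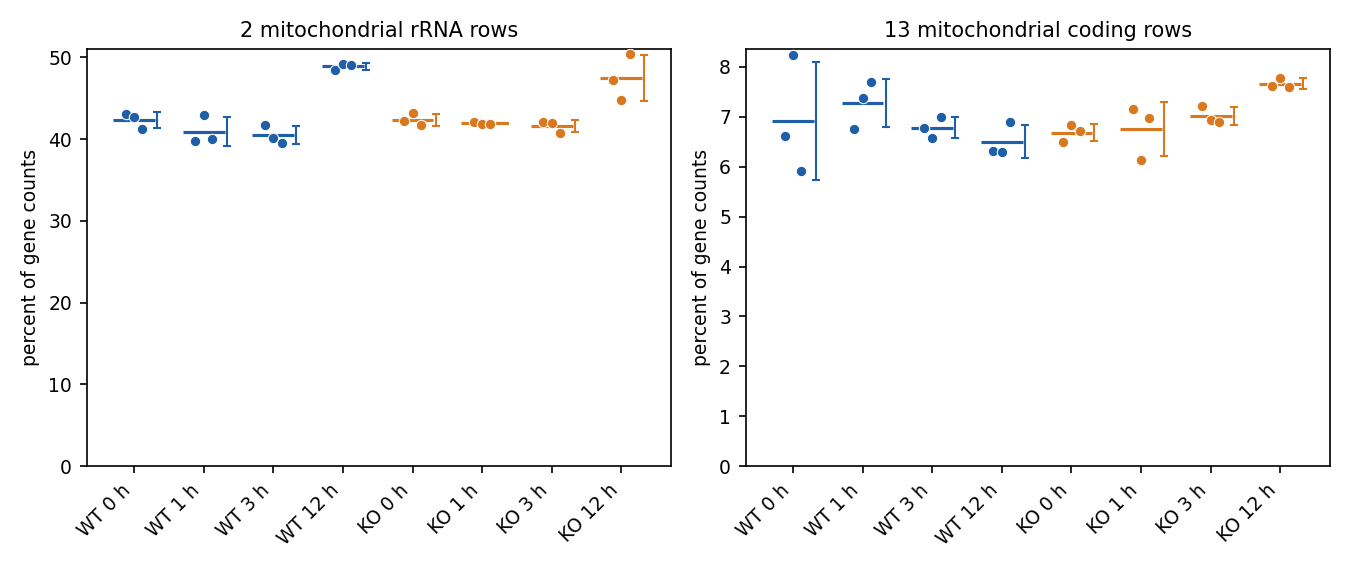
Percent of gene counts (unstranded column) on the 2 mitochondrial rRNA rows (left panel) and on the 13 coding rows (right panel) by group, with a point for each of the 24 libraries, a horizontal bar for the group mean and a whisker of 1 SD on each side (n = 3). The rRNA share of the 12 h libraries lies between 44.8% and 50.4%, above the other times.

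The coding rows fell into a high and a low class. Per kilobase of gene, the means over all libraries were 13368 CPM for ND2, 9871 for CYTB, 7982 for ND5, 7788 for ND6, 7462 for ND4, 6528 for ND1 and 6272 for COX1. The remaining 6 were far lower, with 212 CPM per kilobase for ND3, 136 for ATP8, 81.2 for ATP6, 64.3 for COX2, 34.7 for ND4L and 31.99 for COX3. The rRNAs stood above all of them, at 284039 for mt-Rnr1 of the small ribosomal subunit and 106356 for mt-Rnr2 of the large one. The 7 high rows held 99.5% to 99.8% of the coding counts in every library, so that a sum over coding genes describes those 7. COX2 and COX3, the other subunits of complex IV that the mitochondrial genome encodes, were counted on only 148 to 466 and 69 to 250 reads per library.

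Low rows and copied rows overlapped in large part. The share of 50-base words of a gene that occur exactly in another GENCODE transcript was 100% for COX2, 99.86% for COX3, 99.53% for ATP6, 98.79% for ND4L and 97.99% for ND3. It was 62.23% for ND4, 51.14% for COX1, 8.19% for ND2 and 7.606% for ND5, and 0% for ND1, ND6, CYTB and mt-Rnr1. ATP8 had a share of 0% and a low count, and 43 of its bases are shared with ATP6. Only annotated transcripts were searched, so a copy outside them would not be seen, and the 0% does not make ATP8 an exception. Matches that cover nearly the whole gene were between COX2 and Gm28661 (681 bases, 0 mismatches), COX3 and Gm28437 (783 bases, 0 mismatches), ATP6 and Gm10925 (678 bases, 0 mismatches), ND3 and Gm28438 (345 bases, 1 mismatch) and ND4L and Gm10222 (294 bases, 0 mismatches). Rows with high counts had partial copies, ND4 in Gm28439 (876 of 1378 bases, 0 mismatches) and COX1 in Gm29216 (492 of 1545 bases, 6 mismatches). A read that fits 2 places equally well is set aside by this kind of counting, and 7.23% to 8.70% of reads were set aside as mapping to several places. Levels of ND3, ND4L, COX2, COX3, ATP6 and ATP8 are therefore uncertain as levels, and how much of their low count the copies account for was not tested.

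**Figure D2:**
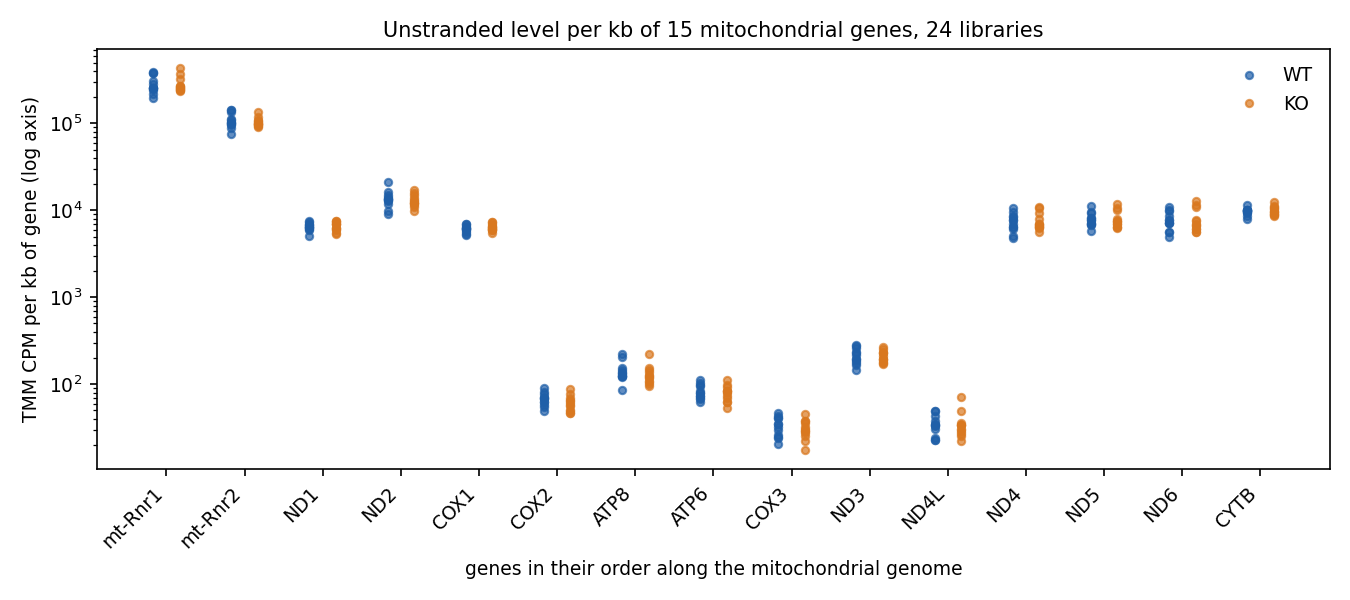
TMM-scaled CPM per kilobase of gene (unstranded column, log axis) of the 2 rRNAs and 13 coding genes in their order along the genome, with a point for each of the 24 libraries, WT in blue and KO in orange. The 7 coding rows with means between 6272 (COX1) and 13368 (ND2) stand apart from the 6 with means at or below 212 (ND3).

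The files also give counts by strand, and these showed rows that mostly do not hold RNA of the gene they name. ND6 is the only coding gene on its strand, and only 5.14% to 16.1% of the reads that lie on it came from that strand. The rest, 83.9% to 94.9%, came from the opposite strand, which is the strand of ND5. ND5 itself had 92.3% to 97.0% of its reads on its own strand, and COX1 99.3% to 99.7%. TrnY, whose sequence is shown above, had 0.112% to 0.295% of its reads on its own strand, TrnE 0.0918% to 1.31% and TrnP 1.28% to 12.3%. The unstranded column treated these rows differently. ND6 (16586 to 28261 counts) and TrnP (728 to 2041) kept many reads there, more than their own strand holds, so those are mostly RNA of the other strand. TrnY had 0 to 2 unstranded counts and TrnE 8 to 54, against 10 to 41 and 1 to 14 on their own strands. Almost none of their opposite-strand reads are therefore in that column. The few counts that TrnE keeps there are still mostly not from its own strand. On average TrnE had 79.5 CPM per kilobase unstranded and 14.1 on its own strand.

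Counting by strand returned reads that the unstranded column had set aside as ambiguous. Of the COX1 counts in the gene-strand column 17.2% to 21.2% were missing from the unstranded column, as were 3.49% to 7.61% of those of CYTB and 6.87% to 15.3% of those of ND5. The reads on the strand opposite to TrnY amounted in number to 93.0% to 98.2% of the counts that COX1 lacked. Reads that run from the bases of TrnY into COX1 would count in this way, but which reads were involved cannot be read from counts.

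In TMM-scaled counts both rRNAs were higher at 12 h than at 0 h in WT liver, and mt-Rnr1 also in KO liver. The libraries were labelled as polyA RNA, and how far the carry-over of rRNA differed between them was not tested. For mt-Rnr1 the WT libraries stood at 207662, 242556 and 291797 CPM at 0 h and at 358705, 366936 and 375227 CPM at 12 h. The KO libraries stood at 234879, 240918 and 252997 CPM at 0 h and at 311674, 355997 and 410704 CPM at 12 h. In neither genotype did the 0 h and 12 h libraries overlap. mt-Rnr1 rose by 0.57 on the log2 scale in WT (SE 0.15, adjusted p = 0.00431) and by 0.57 in KO (SE 0.15, adjusted p = 0.00395), by edgeR's quasi-likelihood test with Benjamini-Hochberg adjustment over all 13204 genes.

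For mt-Rnr2 the WT libraries stood at 120435, 155713 and 178478 CPM at 0 h and at 212370, 224873 and 227830 CPM at 12 h, and mt-Rnr2 rose by 0.55 (SE 0.15, adjusted p = 0.00549). The KO libraries ran from 154305 to 162493 CPM at 0 h and stood at 152620, 186371 and 212242 CPM at 12 h, and here the change of 0.22 did not pass the test (SE 0.15, adjusted p = 0.275). One KO library at 12 h lay below all of 0 h. The WT and KO libraries at 12 h did not overlap for mt-Rnr2, but the difference of -0.27 (95% interval -0.58 to 0.04, adjusted p = 0.534) and the difference between the 2 responses of -0.33 (95% interval -0.77 to 0.11) did not pass either. With library size alone in place of TMM the called rRNA changes fell short of the threshold, at 0.22 for mt-Rnr1 (adjusted p = 0.189) and 0.19 for mt-Rnr2 (adjusted p = 0.281) in WT and 0.30 for mt-Rnr1 in KO (adjusted p = 0.0810).

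The ratio of mt-Rnr1 to mt-Rnr2 does not depend on scaling between libraries. It was 1.33, 1.36 and 2.42 in WT at 0 h, where replicate 2 was the high one, and 1.60 to 1.73 in WT at 12 h. In KO it was 1.52 to 1.56 at 0 h and 1.91 to 2.04 at 12 h. WT 0 h replicate 2 stands apart here, with the highest mt-Rnr1 and the lowest mt-Rnr2 of its group, and without it the WT ratios at 0 h all lie below those at 12 h. With 3 against 3 libraries an exact permutation test cannot go below p = 0.10, so none is given for these ratios.

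Among the coding genes at 12 h, the complex I rows ND5 and ND6 rose in both genotypes, and ND4L rose in both on few counts. ND4 rose in KO, and ND3 fell in WT, with a fall in KO that did not pass. Subunits of complexes III, IV and V did not pass the test in the unstranded column, but which rows pass depended on the column and tool. On the gene strand 5 were called higher in KO, beside 27.1% of all genes called in that column. They were ND1 (0.37, adjusted p = 0.0365), CYTB (0.36, adjusted p = 0.0398), ND4, ND4L and ND5. DESeq2 added ND1, COX1 and CYTB in KO, and its share of all genes called is not given here. In WT the gene-strand column called ND4L, ND5 and ND6 higher and none lower, beside 24.1% of all genes called in that column. In WT, 3 of the 13 coding genes were called higher and 1 lower, beside 25.6% of all tested genes called in either direction. In KO, 4 were called higher and 0 lower, beside 28.8% of all tested genes. The median change of the 13 was 0.25 in WT and 0.28 in KO, where the median of all tested genes was -0.01 and 0.00. With 4 of 13 in each genotype, the share called was close to that of all genes. The 12 h libraries also differed from those of 0 h in gene counts, scaling factor and Sox9, as given above, and the part of these in the changes was not tested.

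ND5 belongs to the proton-pumping arm of complex I. Its WT libraries stood at 10472, 12662 and 12731 CPM at 0 h and at 17149, 17370 and 20357 CPM at 12 h. Its KO libraries stood at 11570, 11767 and 12755 CPM at 0 h and at 18328, 19318 and 21757 CPM at 12 h. Every 12 h library lay above every 0 h library of either genotype. ND5 rose by 0.61 in WT (SE 0.13, adjusted p = 0.000598) and by 0.72 in KO (SE 0.13, adjusted p = 7.82e-05) by edgeR's test. On the gene strand the changes were 0.69 (adjusted p = 0.000313) and 0.83 (adjusted p = 2.29e-05), and with library size alone they were 0.26 in WT (adjusted p = 0.0788) and 0.45 in KO (adjusted p = 0.00336). At 1 h the WT libraries ran from 12399 to 14103 CPM and the KO libraries from 11662 to 13935 CPM. At 3 h they stood between 14000 and 14913 CPM in WT and between 12654 and 14619 CPM in KO. The levels at 1 and 3 h lay below those of 12 h, with overlap of 0 and 1 h in both genotypes and of 0 and 3 h in KO, and no early change of ND5 passed the test.

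The ND6 row, most of whose reads come from the strand of ND5, stood at 2549, 2891 and 4032 CPM in WT at 0 h and at 5046, 5246 and 5733 CPM at 12 h. In KO it stood at 2928, 3140 and 3166 CPM at 0 h and at 5690, 5993 and 6699 CPM at 12 h. Neither genotype's times overlapped, and the row rose by 0.76 in WT (SE 0.15, adjusted p = 0.000230) and by 0.99 in KO (SE 0.15, adjusted p = 5.48e-06). Split by strand, the values were not alike. Reads from ND6's own strand were at 623, 710 and 714 CPM in WT at 0 h and at 792, 924 and 980 CPM at 12 h, and in KO at 593, 648 and 746 CPM at 0 h and at 571, 644 and 960 CPM at 12 h. Reads from the opposite strand were at 3699, 4324 and 6234 CPM in WT at 0 h and at 7681, 7969 and 9246 CPM at 12 h, and in KO at 4282, 4812 and 4897 CPM at 0 h and at 9148, 9265 and 10545 CPM at 12 h. On its own strand the KO groups overlapped, while the opposite strand showed no overlap in either genotype.

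In the fit of the gene-strand column, ND6 itself changed by 0.43 in WT (SE 0.15, adjusted p = 0.0304) and by 0.17 in KO (adjusted p = 0.404). The WT call was lost with library size alone and without WT 0 h replicate 1 or 3 or WT 12 h replicate 1 or 2, where the value ranged down to 0.05. The row's increase in KO was therefore not a called increase of ND6 RNA. Whether the opposite-strand reads over ND6 belong to the 3′ part of the ND5 transcript was not tested. In number they amounted to 0.315 to 0.430 times the ND5 reads of the same library.

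ND4, a further proton-pumping subunit, stood at 6657, 8401 and 14647 CPM in WT at 0 h and at 11485, 11934 and 13191 CPM at 12 h. WT 0 h replicate 2, the library with the high rRNA ratio, was the one at 14647 CPM and spanned the gap. The WT change was 0.30 (SE 0.19, adjusted p = 0.254), and without that library it was 0.70 (adjusted p = 0.00142). In KO the libraries stood at 8798, 8946 and 9118 CPM at 0 h and at 12869, 14533 and 14911 CPM at 12 h, with no overlap. ND4 rose by 0.66 in KO (SE 0.19, adjusted p = 0.00880), a call that was lost with library size alone (0.39, adjusted p = 0.0705) and with no low-count filter (0.54, adjusted p = 0.109). ND4L, whose end overlaps the start of ND4, had only 32 to 93 counts per library. It rose by 0.71 in WT (SE 0.24, adjusted p = 0.0279) and by 0.69 in KO (SE 0.23, adjusted p = 0.0211). Its libraries went from 6.73, 6.80 and 9.02 CPM to 10.0, 12.7 and 14.5 CPM in WT and from 7.61, 9.97 and 10.1 CPM to 9.97, 14.5 and 21.0 CPM in KO, where the groups overlapped. Leaving out WT 0 h replicate 2 or 3, WT 12 h replicate 1 or 3, KO 0 h replicate 2 or KO 12 h replicate 3 ended the call of ND4L in the genotype concerned, with adjusted p between 0.0659 and 0.216, as did library size alone in both (0.35 and 0.43).

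The remaining complex I genes went several ways. ND3 stood at 63.9, 68.0 and 91.3 CPM in WT at 0 h and at 51.1, 58.5 and 60.9 CPM at 12 h, without overlap, and fell by 0.39 (SE 0.14, adjusted p = 0.0351). Its KO change was -0.30 (SE 0.14, adjusted p = 0.108), from 73.6 to 80.6 CPM down to 61.3 to 65.6 CPM. In KO the change was negative in all 16 alternatives, from -0.55 to -0.26, and was called in 2. The WT call of ND3 was lost in the gene-strand column (-0.36, adjusted p = 0.0573), with only the groups compared (-0.38, adjusted p = 0.0573) and without WT 0 h replicate 1 (-0.21, adjusted p = 0.311) or WT 12 h replicate 1 or 3. ND1 ran from 4912 to 6602 CPM in WT at 0 h and from 5715 to 6111 CPM at 12 h, a change of 0.04 (SE 0.13, adjusted p = 0.873), while with library size alone it was called lower (-0.31, adjusted p = 0.0431). In KO ND1 ran from 5099 to 5795 CPM at 0 h and from 6722 to 7236 CPM at 12 h, without overlap, and its change of 0.33 (SE 0.13, adjusted p = 0.0542) missed the threshold, which it passed on the gene strand and with DESeq2 (0.35, adjusted p = 0.0121). ND2 stood at 9539, 13313 and 22021 CPM in WT at 0 h, the last again replicate 2, and ran from 14091 to 14979 CPM at 12 h. Its WT change was -0.05 (SE 0.21, adjusted p = 0.890), or 0.34 without replicate 2 of 0 h (adjusted p = 0.200), and its KO change was 0.27 (adjusted p = 0.380).

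CYTB, the mitochondrially encoded subunit of complex III, stood at 9079, 9721 and 11550 CPM in WT at 0 h and at 11217, 11662 and 13339 CPM at 12 h. The change was 0.25 (SE 0.13, adjusted p = 0.146), and in KO, from 10351 to 11151 CPM up to 12342 to 14134 CPM, it was 0.28 (SE 0.13, adjusted p = 0.0956, or 0.0398 on the gene strand and 0.0162 with DESeq2). The KO libraries did not overlap and the WT libraries did. COX1, the catalytic subunit of complex IV, stood at 8817, 9594 and 9793 CPM in WT at 0 h and at 9227, 9524 and 10755 CPM at 12 h, a change of 0.07 (SE 0.12, adjusted p = 0.744). In KO, where the groups did not overlap, COX1 went from 9171, 9409 and 9637 CPM to 10747, 11242 and 11347 CPM, a change of 0.24 (SE 0.12, adjusted p = 0.138, or 0.0536 on the gene strand and 0.0172 with DESeq2). The low rows COX2, COX3, ATP6 and ATP8 changed by 0.18, 0.16, 0.37 and 0.31 in WT and by 0.22, -0.07, 0.21 and 0.49 in KO, none of them past the test. In 1 of 16 alternatives each, ATP6 and CYTB were called higher in WT and ATP8 in KO. For COX3 the standard error of 0.31 was larger than the change.

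**Figure D3:**
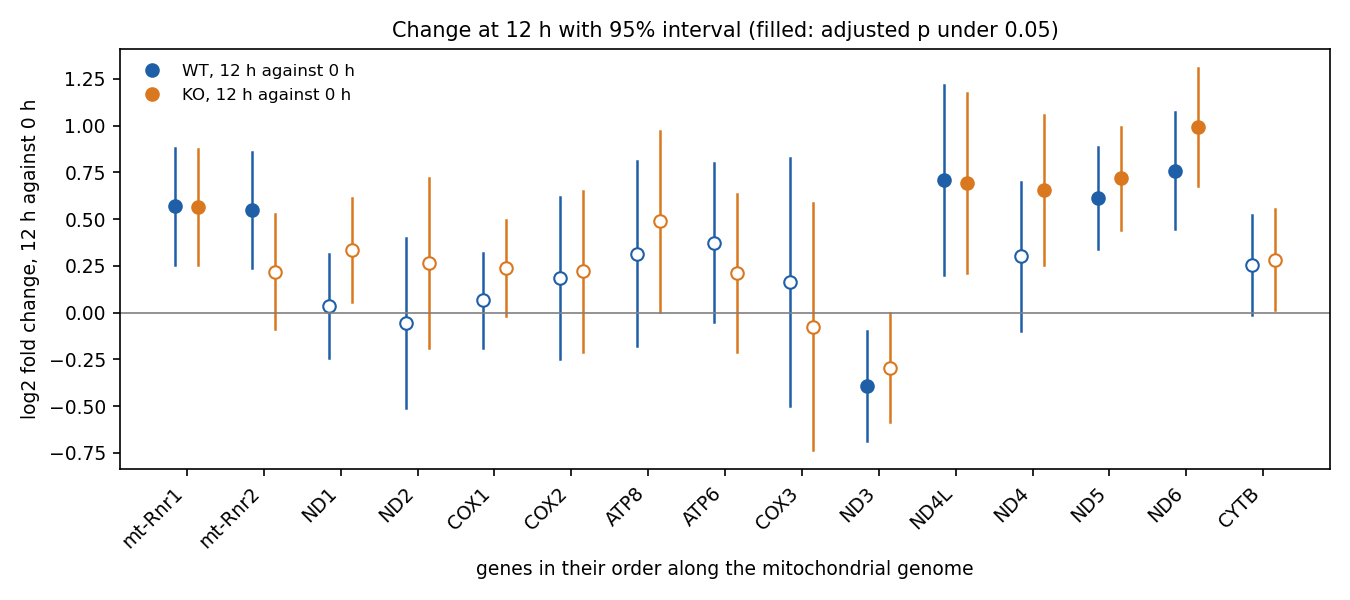
Log2 fold change at 12 h against 0 h (vertical axis) of the 2 rRNAs and 13 coding genes in their order along the genome, WT in blue and KO in orange, with 95% intervals from edgeR's quasi-likelihood fit and filled points for an adjusted p under 0.05. ND5 (0.61 in WT, 0.72 in KO) and the ND6 row (0.76 and 0.99) lie above COX1 (0.07 and 0.24), and ND3 (-0.39 and -0.30) lies below 0.

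Ratios of rows within a library need no scaling between libraries, and the ratio of ND5 to COX1 separated 12 h from 0 and 1 h. This ratio was chosen after the values had been seen. In WT it was 1.19, 1.29 and 1.33 at 0 h, 1.28 to 1.32 at 1 h, 1.57, 1.73 and 1.80 at 3 h, and 1.82, 1.86 and 1.89 at 12 h. In KO it was 1.25, 1.26 and 1.32 at 0 h, 1.35 to 1.40 at 1 h, 1.36 to 1.47 at 3 h, and 1.63, 1.80 and 1.92 at 12 h. The 12 h libraries of both genotypes lay above all libraries of 0 and 1 h, and the WT libraries at 3 h lay above the KO libraries at 3 h. The WT value of 1.57 at 3 h was replicate 1. Over all genes this library stood apart from replicates 2 and 3 of its group. Chi-squared per degree of freedom was 19.0 and 23.4 against these, and 4.32 between them. In the gene-strand column, where COX1 has more counts, the means were 1.15 in WT and 1.16 in KO at 0 h and 1.70 and 1.66 at 12 h.

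The ratio of ND5 to CYTB, the next coding gene on the same strand, went from 1.10 to 1.31 in WT at 0 h to 1.47 to 1.55 at 12 h, and in KO from 1.06 to 1.17 to 1.49 to 1.54. Neither genotype's groups overlapped. The ratio of CYTB to COX1 was 1.07 in WT and 1.15 in KO at 0 h and 1.23 and 1.18 at 12 h, and it was highest at 3 h in WT, at 1.30. The ratio of ND4 to COX1 was 0.755 to 1.53 in WT at 0 h and 1.21 to 1.29 at 12 h. The 1.53 was replicate 2, and the other WT libraries of 0 h, at 0.755 and 0.858, lay below those of 12 h. In KO it was 0.935 to 0.975 at 0 h and 1.14 to 1.39 at 12 h, without overlap. The rRNA counts were 7.12 to 7.81 times the coding counts in WT at 12 h, above the 5.18 to 6.96 of WT at 0 h. In KO the same ratio was 5.76 to 6.64 at 12 h and 6.22 to 6.49 at 0 h, which overlap.

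**Figure D4:**
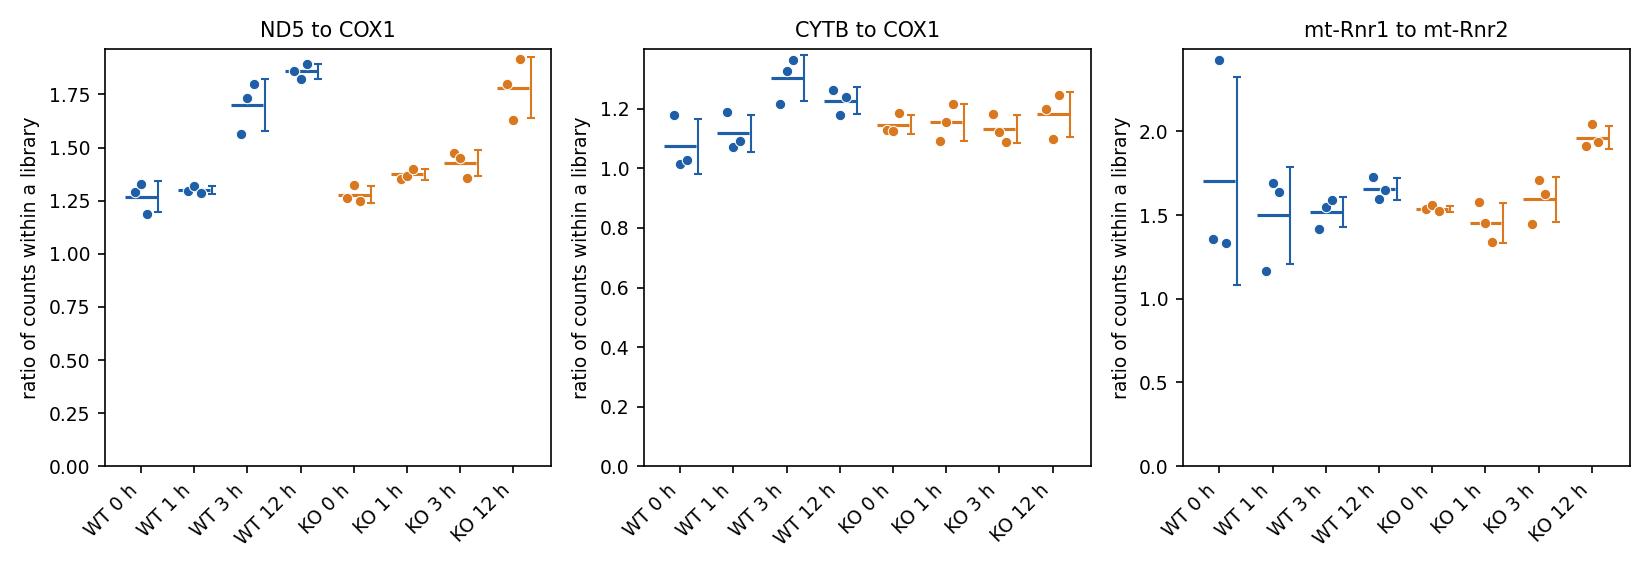
Ratios of unstranded counts between rows of the same library, ND5 to COX1 (left), CYTB to COX1 (middle) and mt-Rnr1 to mt-Rnr2 (right), by group, with points for libraries, horizontal bars for group means and whiskers of 1 SD on each side (n = 3). The ND5 to COX1 ratio lies between 1.19 and 1.33 in WT at 0 h and between 1.82 and 1.89 at 12 h, and the single WT 0 h library at 2.42 in the right panel is replicate 2.

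The tRNA rows were small, and the strand decided what they showed. The highest means in the unstranded column were 234 CPM for TrnP, 10.9 for TrnM, 8.93 for TrnV and 6.98 for TrnF, the genes of the proline, methionine, valine and phenylalanine tRNAs. Mature tRNAs are short, and whether these reads come from tRNAs, from longer precursors or from neighbouring mRNAs was not tested. In the unstranded column 3 of the 12 tested tRNA rows were called higher at 12 h in WT and 1 in KO, beside 25.6% and 28.8% of all tested genes called in either direction, so the count is not above the background. These were TrnA (1.57, adjusted p = 0.00952), TrnE (1.32, adjusted p = 0.00394) and TrnT (1.23, adjusted p = 0.0376) in WT, and TrnE (1.15, adjusted p = 0.00994) in KO. They rest on very few counts, for instance 8 to 37 in WT and 20 to 28 in KO for TrnE at 0 h. On its own strand TrnE held 1 to 14 counts per library, against 8 to 54 unstranded, and it was not called on the gene strand. The 2 calls of the TrnE row are therefore not called increases of TrnE RNA. Without WT 12 h replicate 1 the call of TrnA was lost (adjusted p = 0.107), and without KO 12 h replicate 3 that of TrnE in KO was lost (adjusted p = 0.0644). The call of TrnT in this column was lost in 7 alternatives, among them DESeq2 (adjusted p = 0.0583) and the fits without WT 0 h replicate 1 or 3 or WT 12 h replicate 1 or 2 (0.78 to 1.22). TrnA, TrnE and the tRNA genes TrnT, TrnQ, TrnW and TrnY below are named because they were called, after their values were seen.

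In the gene-strand column 16 tRNA rows passed the filter, 6 were called higher at 12 h in WT and 4 in KO, and none was called lower in any comparison. The share of all genes called in that column, of the 12046 tested there, was 24.1% in WT and 27.1% in KO at 12 h. TrnT, the threonine tRNA gene between CYTB and TrnP, stood at 5.20, 6.96 and 7.99 CPM in WT at 0 h and at 38.6, 43.1 and 45.9 CPM at 12 h. In KO it stood at 3.28, 6.58 and 7.92 CPM at 0 h and at 30.5, 34.6 and 39.5 CPM at 12 h. Every 12 h library was above every 0 h library, and TrnT rose by 2.72 on the log2 scale in WT (adjusted p = 1.40e-08) and by 2.59 in KO (adjusted p = 4.63e-08). TrnP, on the other strand, was at 2.93, 5.41 and 11.8 CPM in WT at 0 h and at 26.7, 31.3 and 37.0 CPM at 12 h, and in KO at 3.35, 3.88 and 5.54 CPM at 0 h and at 20.1, 22.3 and 25.5 CPM at 12 h. It rose by 2.37 in WT (adjusted p = 1.03e-05) and by 2.46 in KO (adjusted p = 1.54e-05), again without overlap.

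TrnQ and TrnW, the glutamine and tryptophan tRNA genes, rose in both genotypes as well. TrnQ rose by 1.67 in WT (adjusted p = 0.00156) and 1.88 in KO (adjusted p = 0.000723), and TrnW by 1.64 (adjusted p = 0.000692) and 1.87 (adjusted p = 0.000202). TrnA (1.24, adjusted p = 0.00627) and TrnY (1.08, adjusted p = 0.00621, and 0.69 and 0.0569 with library size alone) were called in WT and not in KO, and the difference from KO did not pass the test for any tRNA row. TrnT was also higher before 12 h. In WT it stood at 9.24, 15.0 and 19.7 CPM at 1 h (1.13, adjusted p = 0.00978) and at 10.3, 12.1 and 17.3 CPM at 3 h (0.99, adjusted p = 0.0158). In KO it stood at 9.33, 11.1 and 13.9 CPM at 1 h (0.95, adjusted p = 0.0381) and at 15.9, 17.0 and 18.5 CPM at 3 h (1.55, adjusted p = 0.000539). At each of these times every library of TrnT lay above those of 0 h of its genotype. The shares of all genes called in the gene-strand column were 5.98% in WT and 5.66% in KO at 1 h, and 12.2% and 7.45% at 3 h.

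The early calls of TrnT held less well than those of 12 h. Leaving out WT 0 h replicate 3 ended the WT calls at 1 h (0.96, adjusted p = 0.0695) and at 3 h (0.82, adjusted p = 0.0868). Leaving out WT 1 h replicate 3 ended that at 1 h (0.87, adjusted p = 0.0692), and leaving out WT 3 h replicate 2 ended that at 3 h (0.78, adjusted p = 0.0824). The call at 1 h in KO was lost without KO 0 h replicate 2 or 3 or KO 1 h replicate 1 or 3, with adjusted p between 0.0709 and 0.169. TrnP was called at 3 h in KO as well (1.26, adjusted p = 0.0345), and that call was lost in 5 of the leave-one-out fits, without KO 0 h replicate 2 or 3 or any KO library of 3 h (adjusted p between 0.0663 and 0.130). The 12 h calls of TrnT, TrnP, TrnQ and TrnW stood in all 8 alternatives run on the gene-strand column. In the unstranded column TrnP went the other way at 3 h in WT, from 206, 243 and 277 CPM at 0 h to 148, 177 and 185 CPM (-0.51, SE 0.14, adjusted p = 0.0126), and there its counts are almost all from the opposite strand. Fits that left out WT 0 h replicate 2 (-0.40, adjusted p = 0.0801) or WT 3 h replicate 3 (-0.41, adjusted p = 0.0993), or that held just these groups (-0.49, adjusted p = 0.0625), did not call it. On its own strand the change of TrnP at 3 h was 0.41 (adjusted p = 0.511).

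**Figure D5:**
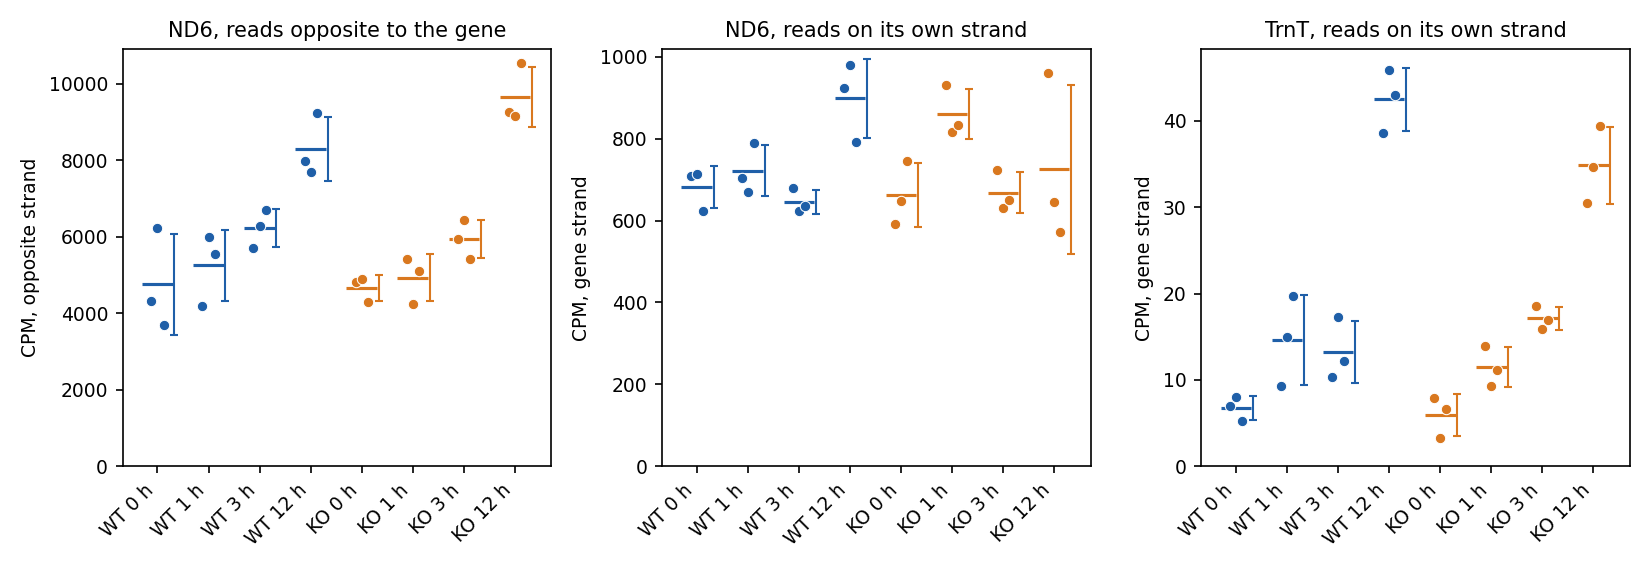
CPM by group of reads over ND6 from the strand opposite to the gene (left), of reads over ND6 from its own strand (middle) and of reads on TrnT from its own strand (right), with points for libraries, horizontal bars for group means and whiskers of 1 SD on each side (n = 3). The KO libraries of 12 h lie between 9148 and 10545 in the left panel and between 571 and 960, overlapping 0 h, in the middle one, and TrnT lies at 30.5 or more in all 12 h libraries.

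Before 12 h no coding gene and no rRNA passed the main test. At 1 h 0 of 13 coding genes were called in WT, beside 8.09% of all genes, and 0 in KO, beside 7.58%. In WT 2 had an unadjusted p under 0.05 and the smallest adjusted p was 0.191, and in KO none did and it was 0.406. At 3 h 0 were called in WT, beside 14.1% of all genes, with 5 at an unadjusted p under 0.05 and a smallest adjusted p of 0.0593. In KO at 3 h 0 were called, beside 9.95% of all genes, with 1 at an unadjusted p under 0.05. The median change of the coding genes was 0.18 at 1 h and 0.25 at 3 h in WT, and -0.02 and -0.05 in KO. The early counts depended on the fit, and the shares of all genes called in the other fits are not given here. In WT at 3 h 5 coding genes were called higher with no low-count filter, and 1 each with DESeq2, the replicate block, only the groups compared, or without WT 0 h replicate 1, WT 0 h replicate 2 or WT 3 h replicate 1. In WT at 1 h 1 was called with no low-count filter or without WT 0 h replicate 1, and in KO at 3 h 1 with only the groups compared.

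WT and KO livers did not differ in any mitochondrial row by the test, at any time. Of the 13 coding genes 0 were called at 0 h (0.0151% of all genes called), 0 at 1 h (0.492%), 0 at 3 h (0.977%) and 0 at 12 h (0.053%) by edgeR's test. An unadjusted p under 0.05 was seen for 2 of them, both at 3 h. The number of genes that differed between the genotypes was small throughout, so a count of 0 lies close to the background. The difference in response between the genotypes was likewise called for 0 coding genes at 1 h (0.454% of all genes), 3 h (0.151%) and 12 h (0.0227%), with 2 at an unadjusted p under 0.05, both at 3 h.

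A missed threshold does not show that the genotypes were alike, and the intervals say how large a difference could have gone unseen. At 12 h KO minus WT was 0.11 for ND5 (95% interval -0.16 to 0.39, adjusted p = 0.819), 0.20 for the ND6 row (-0.11 to 0.51) and 0.23 for ND1 (-0.05 to 0.51, adjusted p = 0.556). The difference of the 12 h responses was 0.11 for ND5 (-0.28 to 0.49) and 0.23 for the ND6 row (-0.20 to 0.67). Of the coding genes and rRNAs, ND1, ND3 and mt-Rnr2 had no overlap between the WT and KO libraries of 12 h, and none of these 3 passed. The share of all tested genes without such overlap was not computed, so this count has no background beside it and is not read as a difference.

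Nuclear genes that serve the mitochondrial genome were examined in 9 lists, and few were called. The lists held 278 tested genes, of which 14 were called higher and 19 lower at 12 h in WT (11.9%) and 9 higher and 21 lower in KO (10.8%). At 1 h 6 were higher and 0 lower in WT (2.16%) and 6 higher and 6 lower in KO (4.32%), and at 3 h 10 higher and 10 lower in WT (7.19%) and 5 and 5 in KO (3.60%). Each of these shares lies below the background given above for the same comparison, and no test of that difference was run. With library size alone, which moved all genes down, the calls at 12 h were 5 higher and 86 lower in WT and 7 higher and 88 lower in KO. Single libraries also moved the counts, to 19 or 20 at 12 h in WT without replicate 1 or 3 of that group, to between 8 and 13 at 3 h in WT without any 1 library of that group or without WT 0 h replicate 1 or 2, and to 6 at 3 h in KO without replicate 3. At 1 h the count was 2 in WT without WT 0 h replicate 2, and 6 in KO without replicate 2 of either time. Between the genotypes 1 of the 278 was called, Polg2, at 12 h.

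Transcription and maintenance of mitochondrial DNA was one list, of 19 tested genes. In KO at 12 h 1 rose and 3 fell, beside 28.8% of all tested genes called. The genes that fell were Polrmt, the mitochondrial RNA polymerase (-0.95, adjusted p = 0.00144), Twnk, the replicative helicase (-1.04, adjusted p = 0.000868) and Tefm, the elongation factor of transcription (-1.33, adjusted p = 0.00519), and none of these 3 calls was lost under any alternative run. Primpol, a primase-polymerase of nucleus and mitochondria, was called higher in the unstranded column (2.30, adjusted p = 0.00847) and changed by -0.67 on the gene strand (adjusted p = 0.232). In WT 1 rose and 1 fell, beside 25.6% of all tested genes called. Polg2, the accessory subunit of the mitochondrial DNA polymerase, stood at 2.52, 3.22 and 3.60 CPM in WT at 0 h and at 9.81, 10.6 and 12.7 CPM at 12 h, and rose by 1.80 (SE 0.25, adjusted p = 1.97e-06). In KO it stood at 2.37, 2.84 and 3.35 CPM at 0 h and at 2.46, 2.64 and 3.49 CPM at 12 h, but it was called higher between these times, by 1.03 at 1 h (adjusted p = 0.00786; 5.36, 6.10 and 6.35 CPM) and by 0.96 at 3 h (adjusted p = 0.0147; 4.05, 6.32 and 6.62 CPM). WT livers ran from 4.63 to 5.71 CPM at 1 h and from 3.31 to 7.02 CPM at 3 h, which did not pass the test. Polg2 differed between KO and WT at 12 h by -1.97 (SE 0.29, adjusted p = 0.00187) without overlap, and without KO 12 h replicate 2 the difference was -1.86 and missed the threshold (adjusted p = 0.0520). The difference between the 12 h responses of KO and WT was called for 0 of the 19 genes, Polg2 included, beside 0.0227% of all tested genes.

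Among 22 genes of mitochondrial RNA processing and stability, 1 rose and 4 fell in WT at 12 h, beside 25.6% of all tested genes called. In KO 2 rose and 2 fell, beside 28.8%. Pde12, which removes poly(A) tails from mitochondrial RNA, stood at 6.93, 7.36 and 9.54 CPM in WT at 0 h and at 25.6, 26.7 and 35.5 CPM at 12 h. In KO it stood at 8.69, 8.71 and 9.10 CPM at 0 h and at 14.4, 29.7 and 30.4 CPM at 12 h. It rose by 1.87 in WT (adjusted p = 7.57e-08) and by 1.49 in KO (adjusted p = 3.94e-06). On the gene strand the 12 h changes were smaller, 0.87 (adjusted p = 0.00438) and 0.94 (adjusted p = 0.000951), and Pde12 was also called at 1 h in the unstranded column (0.99 in WT, 0.90 in KO) but not on the gene strand (0.12, adjusted p = 0.848, and 0.25, adjusted p = 0.557). Mtpap, the mitochondrial poly(A) polymerase, rose by 0.91 in KO (adjusted p = 2.14e-05). Fastkd1 and Fastkd5, RNA-binding proteins of the FASTK family, fell by 0.80 and 1.10 in KO, and Fastkd1 fell by 0.97 in WT (adjusted p = 0.000625). Prorp, the nuclease subunit that cuts the 5′ ends of mitochondrial tRNAs, fell by 1.00 in WT (adjusted p = 0.0201), a call lost without WT 0 h replicate 1 (-0.81) or WT 12 h replicate 1 (-0.82).

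Lists of translation held few calls, and no list was tested as a group. Of all tested genes, 25.6% were called at 12 h in WT and 28.8% in KO. Of 77 mitochondrial ribosomal proteins 0 rose and 3 fell in WT at 12 h, and 0 rose and 7 fell in KO, with medians of -0.10 and -0.13. Mrpl50, a protein of the large subunit, fell by 0.84 in KO (adjusted p = 0.000113). Its WT change of -0.46 (adjusted p = 0.0262) was lost in 6 alternatives, among them the fits without WT 0 h replicate 1 or 3 or WT 12 h replicate 1 or 2. Of 14 translation factors 0 rose and 3 fell in each genotype, among them Mtif2, an initiation factor, at -0.57 in KO (adjusted p = 0.00303) and -0.46 in WT (adjusted p = 0.0166). The WT call of Mtif2 was lost without WT 0 h replicate 2 or WT 12 h replicate 2 or 3 (adjusted p 0.0511 to 0.0781). Of 20 genes of rRNA modification and ribosome assembly 0 rose and 2 fell in WT and 1 rose and 1 fell in KO. Some of these calls were fragile. Of 16 alternatives, Mtg2 (WT) was called in 6, Noa1 (KO) in 8, the ribosomal protein Mrpl49 (WT) in 2 and the synthetase Hars2 (WT) in 7. The list of mitochondrial aminoacyl-tRNA synthetases also held Qrsl1, Gatb and Gatc, which are not synthetases. Of its 21 genes 2 rose and 2 fell in WT, and 2 rose and 1 fell in KO.

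Of 80 nuclear-encoded respiratory chain subunits 0 were called in KO at 12 h (median -0.05), beside 28.8% of all tested genes. In WT 7 rose and 0 fell (median 0.18), beside 25.6% of all tested genes called. Those in WT included the ATP synthase subunits Atp5mk (0.55, adjusted p = 0.00200), Atp5mc3 (0.46) and Atp5f1a (0.40) and the complex I subunit Ndufv3 (0.49). With library size alone these 4 changes were 0.19, 0.10, 0.04 and 0.13 and were not called, and some were also lost without WT 0 h replicate 2 (Atp5mc3, Atp5f1a), WT 12 h replicate 1 (Atp5mc3, Atp5f1a) or WT 12 h replicate 3 (Ndufv3). No subunit on the list passed the test of the difference between the genotypes. Among 12 regulators of mitochondrial biogenesis 2 rose and 3 fell in each genotype. Pprc1, a coactivator related to PGC-1, rose by 0.90 in WT and 1.24 in KO, and Sirt1, a deacetylase, by 0.84 and 0.93. Ppara, the fatty acid sensing nuclear receptor, fell by 1.42 and 1.47, and Sirt3, the mitochondrial deacetylase, by 0.72 and 0.94, where the WT call was lost without WT 0 h replicate 3 or WT 12 h replicate 1 (-0.57 and -0.56). Of 13 mitochondrial proteases and stress chaperones 1 rose and 1 fell in each genotype. These were Clpx, the unfoldase of the ClpXP protease, which rose by 1.75 in WT (adjusted p = 1.39e-10) and 1.10 in KO (adjusted p = 8.78e-07), and Oma1, a stress-activated inner membrane protease, which fell by 0.82 in WT and 0.54 in KO, where the call was lost without KO 0 h replicate 2 or KO 12 h replicate 1 (-0.46 and -0.38).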

How the data were processed

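RNA of individual livers was sequenced on an AVITI instrument, and reads were aligned with STAR to mm39, per the submitters' processing notes, with version and annotation not given in the sources used here. Per file, the authors deposited 3 columns of raw counts per gene, unstranded, gene strand and opposite strand. The 4 lines per file that name no gene were left out: 19.2% to 23.7% of reads were unmapped, 7.23% to 8.70% mapped to several places, 21.2% to 22.7% lay in no gene and, unstranded, 26.3% to 30.8% were ambiguous. Unstranded counts were filtered with filterByExpr, scaled by TMM and fitted with edgeR 4.0.16 (R 4.3.3, limma 3.58.1) as 8 group means over 24 libraries, with 16 residual degrees of freedom, quasi-likelihood F-tests and Benjamini-Hochberg adjustment over 13204 genes at 0.05. CPM by strand use the same scaling, and the gene-strand column was also fitted by itself (12046 genes). The scripts were tested on simulated data.

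All coding genes and rRNAs are named, with the 4 tRNA rows of highest mean CPM and up to 4 called genes of smallest p per list and comparison; exceptions are given as such. The members and lists were chosen with earlier results of these data known, so no list's direction is independent evidence. Alternatives were RLE scaling, library size alone, 2 other low-count filters, DESeq2 1.42.0 and the gene-strand column. The mitochondrial rRNA rows were also removed, and in another fit the scaling alone was computed without the mitochondrial rows and AY036118. Further alternatives were only the groups compared, WT 3 h replicates 2 and 3 left out, each library left out, and a replicate block. Replicate libraries differed by more than counting noise (chi-squared per degree of freedom 2.39 to 23.4). Sequences and copies come from GENCODE M21 on GRCm38; since the files use mm39, no coordinates are given.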

Additional observations from a re-analysis of the deposited data

How the results depend on the processing

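The counts of coding genes called changed as follows. Shares of all genes called under the other settings are given only for the gene-strand column. The other counts therefore have no background beside them. In WT at 1 h (0 called) 1 was called with no low-count filter, and 0 to 1 when each library was left out. In WT at 3 h (0 called) 5 were called with no low-count filter and 1 each with DESeq2, with only the groups compared and with the replicate block, and 0 to 1 when each library was left out. In WT at 12 h (4 called) library size alone gave 3, of which 1 was higher and 2 lower, and leaving out each library gave 2 to 4. In KO at 3 h (0 called) only the groups compared gave 1. In KO at 12 h (4 called) DESeq2 gave 7, with ND1, COX1 and CYTB added, and leaving out each library gave 3 to 4. The gene-strand column gave 3 higher and 0 lower in WT and 5 higher and 0 lower in KO at 12 h. Beside these, 24.1% and 27.1% of all genes were called in that column. Between KO and WT at 3 h (0 called) no low-count filter gave 1, lower in KO. The replicate block gave 4 called coding genes at 12 h in WT and 4 in KO; same-numbered libraries correlated between -0.168 and 0.152 and in 0 of 10 comparisons were all 3 pairs over 0.1, so the numbers do not pair the samples.

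Library size alone, without TMM, moved the median of all genes at 12 h to -0.37 in WT and -0.26 in KO. The share of calls that were higher went from 52.4% to 17.6% in WT and from 52.3% to 26.3% in KO, and values are best read relative to that shift. Under it these uncalled changes turned sign: in WT ND1 -0.31, there called lower (adjusted p = 0.0431), ND4 -0.042, COX1 -0.29, COX2 -0.17, COX3 -0.19, ATP8 -0.043 and CYTB -0.10, and in KO ND2 -0.0059, COX1 -0.018, COX2 -0.050, ATP6 -0.059 and mt-Rnr2 -0.054. With no low-count filter ND1 was -0.040 and COX1 -0.013 in WT. Leaving out each library in turn moved ND1 in WT between -0.083 and 0.15, COX1 between -0.0049 and 0.11 and COX3 between -0.13 and 0.35, turned ND2 to 0.34 without WT 0 h replicate 2, and moved COX3 in KO between -0.34 and 0.089. On the gene strand TrnP at 3 h in WT was 0.41 and Primpol at 12 h in KO -0.67. The ND5 change at 12 h ran from 0.26 to 0.69 in WT, called in 15 of 16 alternatives, and from 0.45 to 0.83 in KO, called in 16 of 16. Replicates are single mice, 3 per group, and rows with few counts (ND4L, the tRNAs) are limited by counting.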
